A study of Mus musculus with 16 samples.

Results

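The 8 genes described here encode ubiquitin ligases and growth regulators known from skeletal muscle wasting: Fbxo32, Trim63, Fbxo40, Fbxo30, Mstn, Klf15, Foxo3 and Ddit4. They were chosen by name from the 25239 genes of the RNA table with its fold changes known, so their RNA values are a description. All 8 were among the 15396 genes with an adjusted p-value. Their m6A peaks were taken by gene name from the 13083 peaks of the peak table, which held 12 peaks in 6 of the 8 genes. The samples were bone of wild type mice after ovariectomy (titled OVX), which removes the main source of estrogen, or after a sham operation (titled NC). Each arm had 4 immunoprecipitated (IP) libraries, of RNA pulled down with an antibody to N6-methyladenosine (m6A), and 4 input libraries of the RNA before the pull-down, 16 in all. The treatment field gives ovariectomy also for the 4 IP libraries titled NC, and the title was followed. The labels give no age, strain or kind of bone, nor whether the libraries of an arm stem from different mice, so the p-values measure the spread between these libraries, which may be technical.

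Muscle loses mass when protein breakdown outpaces synthesis. Foxo3, a transcription factor that the insulin and IGF signal through Akt keeps out of the nucleus, switches on the ligases Fbxo32 (atrogin-1, also called MAFbx) and Trim63 (MuRF1), which mark muscle proteins for the proteasome. Glucocorticoids act on the same genes through their receptor, with Klf15 and Ddit4 among their targets, and myostatin, the product of Mstn, restrains muscle growth through activin type II receptors. In bone samples such RNA can come from muscle fibres attached to the bone as well as from bone and marrow cells.

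Promoter windows of RefSeq (GRCm38.p6) ran from 250 bases before each gene's start to 50 bases after it. They were at hand for 7 of the 8 genes in 8 windows, 2 of them of Fbxo40. Fbxo32 had no window and was not searched for motifs. The 4 windows shown belong to genes that passed the RNA threshold, 3 with a negative fold change and, for contrast, Foxo3 with a positive one. They run 5′ to 3′ along the gene, and capitals mark the searched motifs.
Trim63, chr4:134314870-134315169, plus strand: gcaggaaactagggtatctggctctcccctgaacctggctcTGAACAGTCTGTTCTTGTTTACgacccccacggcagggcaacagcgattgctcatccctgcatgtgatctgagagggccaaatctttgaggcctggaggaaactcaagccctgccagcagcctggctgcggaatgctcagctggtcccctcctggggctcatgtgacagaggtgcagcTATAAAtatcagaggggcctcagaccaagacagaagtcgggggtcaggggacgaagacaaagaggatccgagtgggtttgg
Mstn, chr1:53061390-53061689, plus strand: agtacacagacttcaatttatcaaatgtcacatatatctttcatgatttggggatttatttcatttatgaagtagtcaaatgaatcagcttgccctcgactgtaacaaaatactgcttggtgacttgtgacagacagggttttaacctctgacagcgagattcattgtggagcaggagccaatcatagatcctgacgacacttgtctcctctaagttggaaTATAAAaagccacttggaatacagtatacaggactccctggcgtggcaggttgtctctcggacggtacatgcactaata
Klf15, chr6:90462326-90462625, plus strand: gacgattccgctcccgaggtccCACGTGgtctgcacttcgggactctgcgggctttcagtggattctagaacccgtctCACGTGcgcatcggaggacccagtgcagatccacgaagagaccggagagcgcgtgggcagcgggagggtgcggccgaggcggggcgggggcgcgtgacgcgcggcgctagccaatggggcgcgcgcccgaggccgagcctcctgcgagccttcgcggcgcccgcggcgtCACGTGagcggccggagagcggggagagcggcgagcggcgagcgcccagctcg
Foxo3, chr10:42276646-42276945, minus strand: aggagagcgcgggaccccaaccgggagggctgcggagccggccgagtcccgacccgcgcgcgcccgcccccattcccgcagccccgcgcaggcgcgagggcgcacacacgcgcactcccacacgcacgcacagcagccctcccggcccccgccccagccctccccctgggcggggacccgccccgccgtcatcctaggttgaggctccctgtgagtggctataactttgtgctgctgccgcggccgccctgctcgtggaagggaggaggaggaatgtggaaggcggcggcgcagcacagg

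The Trim63 window held a match to the palindrome bound by the glucocorticoid receptor next to a FoxO site. The palindrome searched was AGAACA and TGTTCT separated by 3 bases, and Trim63 matched it with 1 mismatch over the 12 letters. The FoxO site TGTTTAC followed with 0 bases between, so that the pair ran from 209 to 188 bases before the start. Searched on both strands, TGTTTAC occurred in 3.65% of 32851 promoter windows and the palindrome with exactly 1 mismatch in 0.155%. Both occurred together in 2 windows, those of Trim63 and of the predicted gene Gm31658. None of the other windows of these 7 genes held either, and Fbxo32 was not searched. The palindrome without a mismatch was in none of the 8 windows and in 0.00913% of all. Klf15 held the E-box CACGTG 3 times, at 228, 172 and 3 bases before the start, where 7.15% of all windows held it at least once and 0.0883% at least 3 times. TATAAA stood 29 bases before the start of Mstn and 31 before that of Trim63, and in 13.6% of all windows. No searched motif overlapped another. A match is a description of letters and not of binding.

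The windows also differed in base composition. The windows of Trim63 and Mstn held 7 and 6 CpG dinucleotides and those of Fbxo40 held 2 and 3, beside a median of 7 over all windows. Klf15 and Fbxo30 held 47 each, Foxo3 35 and Ddit4 26. GC content ran from 41.3% in Mstn to 79.7% in Fbxo30, beside a median of 52.7% over all windows. Klf15, with a negative fold change, thus stood with the 3 genes of positive fold change in base composition.

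**Figure D1:**
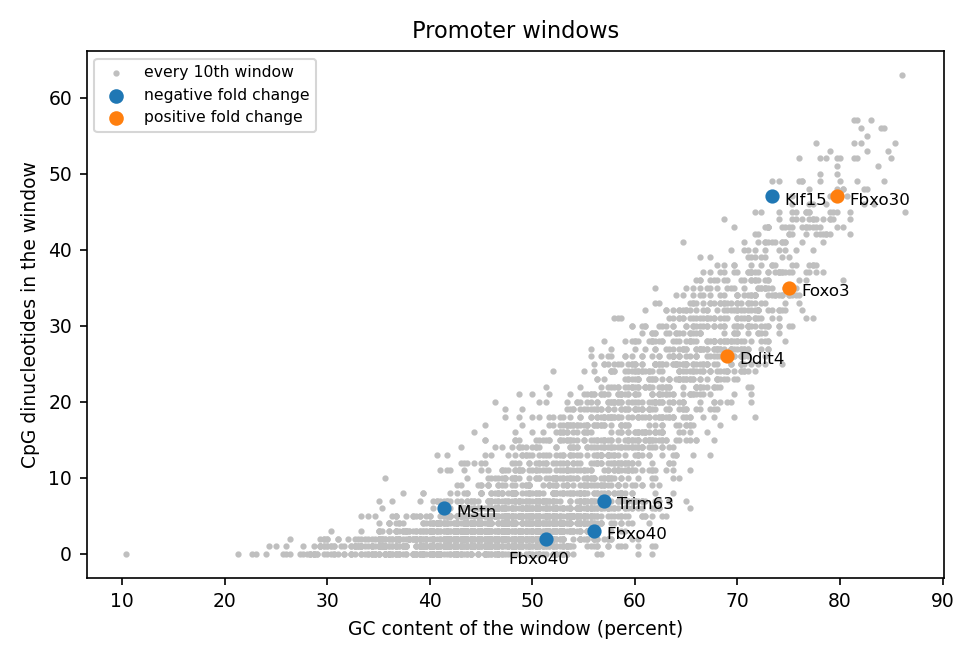
GC content in percent (x axis) and number of CpG dinucleotides (y axis) of the promoter windows of 7 genes, coloured by the sign of the RNA fold change, over every 10th window of the table in grey. Trim63, Mstn and Fbxo40 sit at 2 to 7 CpG and Klf15, Fbxo30, Foxo3 and Ddit4 at 26 to 47.

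In RNA, 5 of the 8 genes passed the threshold with a negative fold change and 1 with a positive one. The negative ones were Trim63, Fbxo32, Mstn, Fbxo40 and Klf15, at fold changes of 2.38 to 5.58 on the linear scale, and the positive one was Foxo3 at 1.40. Fbxo30 and Ddit4 were positive and did not pass. For the threshold, an adjusted p under 0.05, the authors' deposited table gave a background of 12.2% of all tested genes, 6.11% with a negative and 6.07% with a positive sign. The same 6 genes passed at an adjusted p under 0.01, as 5.73% of all genes did, and 7 at 0.1, as 17.7% did. With a log2 fold change of 1 or more in size also asked, 5 passed beside 2.55% of all genes. With p-values adjusted anew, 6 passed over every gene with a p and 6 over genes of at least 50 mean counts, beside 9.13% and 13.9% of all genes. Since the genes were chosen with this comparison known, nothing is read from their count. The median log2 fold change was -1.59 over the 8 genes and -0.02 over all tested genes in the authors' deposited table. The tables hold no value of a single library and do not state which arm is the numerator, so values by library cannot be given, signs are as deposited, and negative is not to be read as lower after ovariectomy. In bulk bone, fewer cells of a type and less RNA per cell cannot be told apart.

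The ubiquitin ligases divided into a negative group of 3 and Fbxo30. Fbxo32 is the substrate-binding F-box subunit of an SCF ligase. It had a log2 fold change of -2.20 ± 0.38 (SE) in the authors' deposited table, a 4.59-fold difference between the arms, at a mean normalized count of 5102 per library. Mean counts are not divided by transcript length and do not compare levels between genes. Its deposited adjusted p was 1.4e-06, rank 72 by p among all tested genes in the authors' deposited table. Trim63 is a RING finger ligase that binds the sarcomere and marks thick filament proteins. It stood at -2.48 ± 0.60 (SE) in the authors' deposited table, a 5.58-fold difference and the largest of the 8, at a mean count of 1814 and an adjusted p of 0.0013. Fbxo40 is an F-box protein of striated muscle that marks the insulin receptor substrate Irs1. It had -1.93 ± 0.45 (SE), a 3.80-fold difference, at a mean count of 1326 and an adjusted p of 0.00078 in the authors' deposited table. These 3 ligases lay within 0.55 of each other on the log2 scale, about the size of the SE of Trim63 alone. Fbxo30 (MUSA1) is an F-box ligase that takes part in the atrophy of denervated mouse muscle. It stood at 0.20 ± 0.31 (SE) in the authors' deposited table, with an adjusted p of 0.723 at a mean count of 3148. Its approximate 95% interval, 1.96 SE to either side, ran from -0.40 to 0.80, which leaves room for a difference of either sign.

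The secreted regulator Mstn sided with the negative ligases. It had a log2 fold change of -2.16 ± 0.52 (SE) in the authors' deposited table, a 4.46-fold difference at a mean count of 105, with an adjusted p of 0.0014. Klf15, a zinc finger transcription factor induced by glucocorticoids that drives the breakdown of branched-chain amino acids, stood at -1.25 ± 0.35 (SE) in the authors' deposited table. That is a 2.38-fold difference at a mean count of 482, with an adjusted p of 0.0074.

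Foxo3 had the smallest p of the 8 genes at one of the smaller fold changes. It stood at 0.49 ± 0.07 (SE) in the authors' deposited table, with an adjusted p of 6.3e-09, rank 34 by p among all tested genes, at a mean count of 3107. The RNA of this regulator, which switches on Fbxo32 and Trim63 in muscle, carried the opposite sign to both. Whether the Foxo3 protein was in the nucleus, and in which cells, was not measured. Ddit4 (REDD1), which restrains the growth kinase mTOR under stress, had 0.93 ± 0.37 (SE) at a mean count of 1199 in the authors' deposited table. Its interval of 0.19 to 1.66 lay above 0, but its adjusted p of 0.083 missed the threshold.

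**Figure D2:**
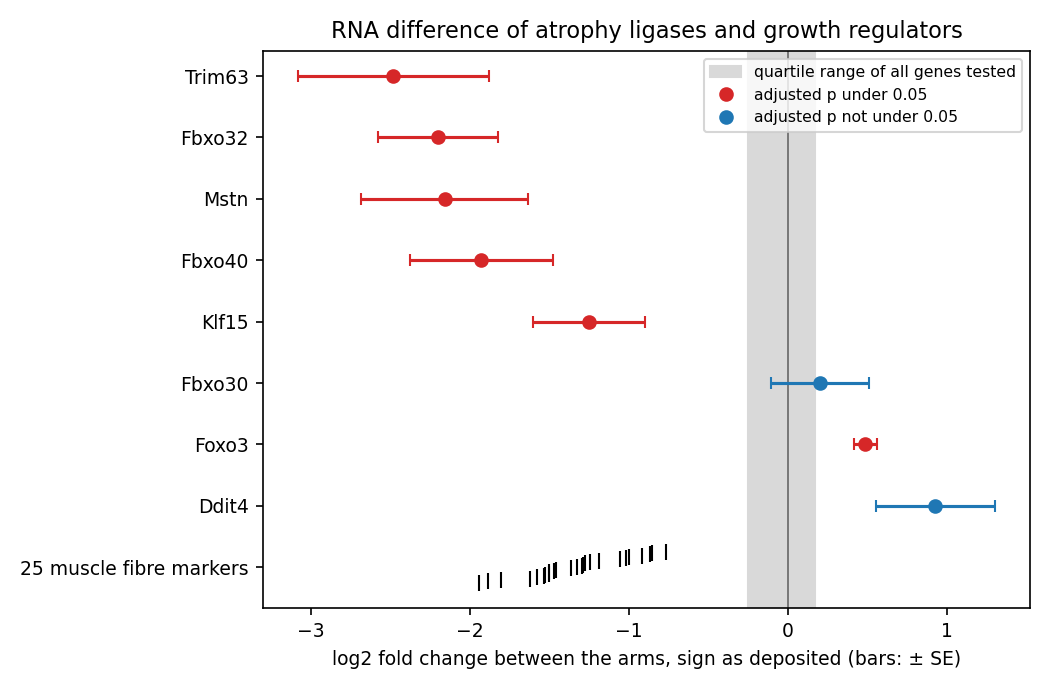
Log2 fold change between the arms, sign as deposited (x axis), of the 8 genes with bars of 1 SE, red where the adjusted p was under 0.05, over the quartile range of all tested genes in grey. The bottom row gives the 25 muscle fibre markers as ticks, from -1.94 to -0.77, with Trim63, Fbxo32 and Mstn farther to the left than all of them.

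Markers of skeletal muscle fibres carried the same sign as the 5 negative genes. All 25 fibre markers were negative, where 46.7% of all tested genes were positive. Their values ran from -1.94 to -0.77 on the log2 scale, at a median of -1.33. By the authors' deposited adjusted p, 4 of them passed (16.0%), where 12.2% of all tested genes passed with either sign. All 4 were negative, and 6.11% of all tested genes passed with a negative sign. Neb and Actn3, which build the thin filament and the Z-disc, stood at -1.94 ± 0.61 and -1.54 ± 0.55 (SE) in the authors' deposited table. The fast myosin Myh1 had -1.62 ± 0.52 and the calcium pump Atp2a1 had -1.81 ± 0.64 (SE) in the authors' deposited table. No fibre marker had a mean count of 0, and together the 25 held 2.80% of the summed mean counts. Their summed level in each arm cannot be had from a table without library values. Fbxo32, Trim63 and Mstn were more negative than all 25 fibre markers and Fbxo40 than 24 of them, while Klf15 was more negative than 9. Relative to the fibre markers' median, Trim63 stood at -1.15, Fbxo32 at -0.87, Mstn at -0.83, Fbxo40 at -0.60 and Klf15 at 0.08 on the log2 scale. No error can be put on these differences, because the errors of genes from the same libraries are shared, and the part of muscle content in the result was not tested.

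The spread between libraries set these genes apart from Foxo3. The deposited SE was compared with the SE that counting alone would give at the same mean count, and the rest was expressed as a coefficient of variation (CV) between libraries of an arm. For Fbxo32 the deposited SE was 20.3 times the counting error, which left a CV of 37.1%. Among the 500 genes of nearest mean count, 97.6% had a smaller SE, and their median CV was 10.6%. Trim63, Fbxo40 and Mstn had CVs of 58.6%, 43.9% and 49.8%, against medians of 11.9%, 12.8% and 29.0% among their 500 nearest genes. Klf15, Ddit4 and Fbxo30 had CVs of 34.2%, 36.6% and 30.0%, above their neighbours' medians of 15.6%, 12.6% and 11.2%. Foxo3 had a CV of 6.83%, and only 8.80% of its 500 neighbours had a smaller SE. The fibre markers had a median CV of 62.4%, above each of the 8 genes. Fbxo32 therefore passed at a smaller p than the fibre markers with both a larger fold change and a smaller SE.

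**Figure D3:**
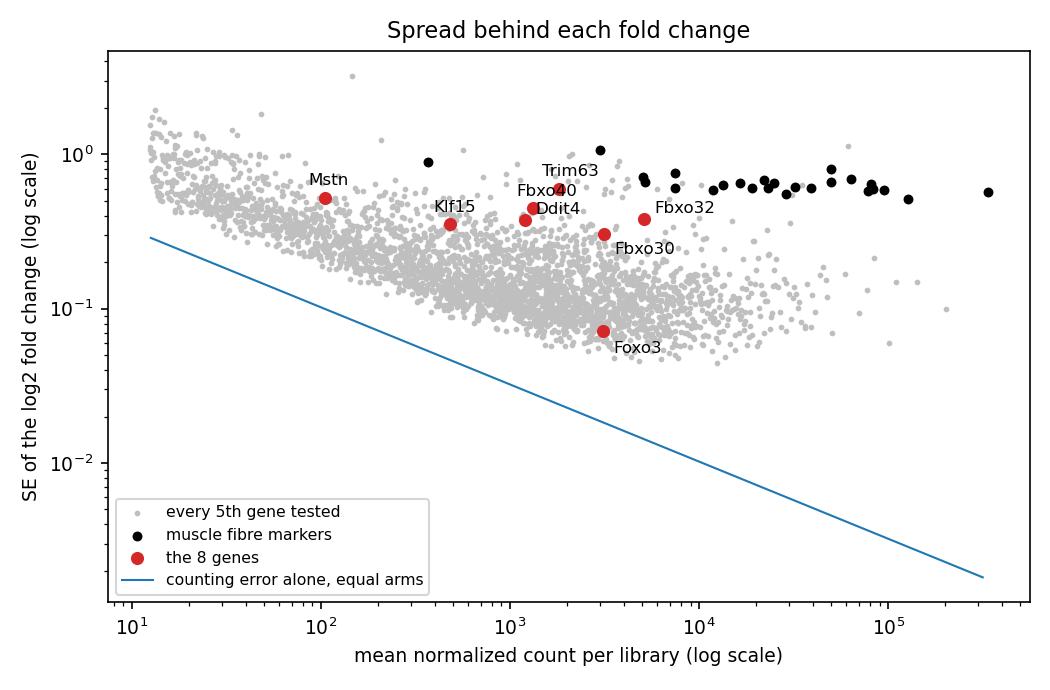
SE of the log2 fold change (y axis, log scale) against mean normalized count per library (x axis, log scale) for the 8 genes in red, the 25 muscle fibre markers in black and every 5th tested gene in grey. The line is the SE of counting alone for equal arms. Foxo3, at an SE of 0.07, lies among the lowest genes of its mean count, and the other 7 lie near the top of the grey cloud or above it.

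Other ubiquitin ligases and adaptors of muscle were divided as well. Of 18 such genes, 12 were negative and 6 positive, at a median of -0.46 in the authors' deposited table. With a negative sign 6 passed and with a positive sign 1 passed, 38.9% in all against 12.2% of all tested genes. Klhl41, a sarcomere adaptor of a cullin ligase, stood at -1.77 ± 0.45 (SE), and Trim55, a relative of Trim63, at -1.79 ± 0.47 (SE) in the authors' deposited table. The 1 positive gene, named after its value was seen, was the sarcomere F-box gene Fbxl22 at 0.66 ± 0.23 (SE) in the authors' deposited table. The widely expressed ligase Nedd4 had -0.26 ± 0.07 and the conjugating enzyme Ube2b had -0.65 ± 0.18 (SE) in the authors' deposited table. Klhl41 and Trim55 were thus near the fibre markers and Nedd4 and Ube2b closer to 0, while Fbxl22, also a muscle gene, was positive. Klhl41, Trim55, Nedd4 and Ube2b were named by smallest p, so no contrast of muscle genes with widely expressed ones is read from them.

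Genes of the FoxO family and of FoxO-driven autophagy had both signs. Of 18, 11 were negative and 7 positive, at a median of -0.17 in the authors' deposited table. With a negative sign 7 passed (38.9%), where 6.11% of all tested genes did, and with a positive sign 0 passed, where 6.07% did. An unadjusted p under 0.05 was found for 8 of the 18 in the deposited DESeq test. The share of all tested genes under that p was not counted, so nothing is read from it. The positive ones included Foxo1 and Ulk1, chosen after their values were seen, at 0.37 ± 0.22 and 0.27 ± 0.10 (SE) in the authors' deposited table. Neither passed. Foxo4 passed with a negative sign at -0.28 ± 0.10 (SE), opposite to Foxo3. Foxo6 stood at -0.87 ± 0.86 (SE) in the authors' deposited table and did not pass. Pink1 and Bnip3, which direct damaged mitochondria to autophagy, stood at -0.60 ± 0.13 and -0.89 ± 0.26 (SE) in the authors' deposited table. Sqstm1, the cargo receptor p62, had -0.32 ± 0.08, and Gabarapl1, which coats autophagosomes, had -0.32 ± 0.11 (SE) in the authors' deposited table.

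In the pathway of myostatin, 17 of 19 genes were negative, where 46.7% of all tested genes were positive. Many of these values were small, and the median was -0.10, beside -0.02 over all tested genes in the authors' deposited table. The 3 that passed (15.8%) were negative, where 12.2% of all tested genes passed with either sign and 6.11% with a negative one. The activin subunit gene Inhbb stood at -1.01 ± 0.26 (SE) in the authors' deposited table. Fst, whose product binds and blocks myostatin and activins, had -1.15 ± 0.31, and the related Fstl1 had -0.53 ± 0.18 (SE) in the authors' deposited table. Mstn and its antagonist Fst thus had the same sign.

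Upstream growth and stress signals were mixed in sign. Of 23 genes of the insulin and IGF to mTOR pathway, 13 were positive and 10 negative, at a median of 0.05 in the authors' deposited table. Of all tested genes 12.2% passed with either sign and 6.07% with a positive one. The 3 of this pathway that passed (13.0%) were positive. Among them, Mtor, the growth kinase, had 0.30 ± 0.05 and the insulin receptor substrate Irs2 had 0.37 ± 0.13 (SE) in the authors' deposited table. Of 15 stress genes grouped with Ddit4, 7 were positive and 8 negative, at a median of -0.003 in the authors' deposited table. The 3 that passed (20.0%, against 12.2% of all tested genes with either sign and 6.07% with a positive one) were positive. They were Atf4, the transcription factor of the integrated stress response, at 0.30 ± 0.09, and its targets Asns at 0.59 ± 0.13 and Ddit3 at 0.46 ± 0.13 (SE) in the authors' deposited table. None of 19 genes of the glucocorticoid receptor and its targets passed in the deposited test, where 12.2% of all tested genes did. That test is named as DESeq in the submitters' processing notes. The share of all tested genes with an unadjusted p under 0.05 was not counted, and 4 of the 19 had one. Of these, Pdk4, which restrains glucose oxidation in muscle, stood at -2.02 ± 0.77 and the NF-kB inhibitor Nfkbia at 0.34 ± 0.13 (SE) in the authors' deposited table, with adjusted p-values of 0.0623 and 0.0659. Klf15, Ddit4, Fbxo32 and Trim63, on which glucocorticoids also act, were counted among the 8 genes only. All of these but Ddit4 passed, so the 19 genes do not cover every target of the receptor.

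**Figure D4:**
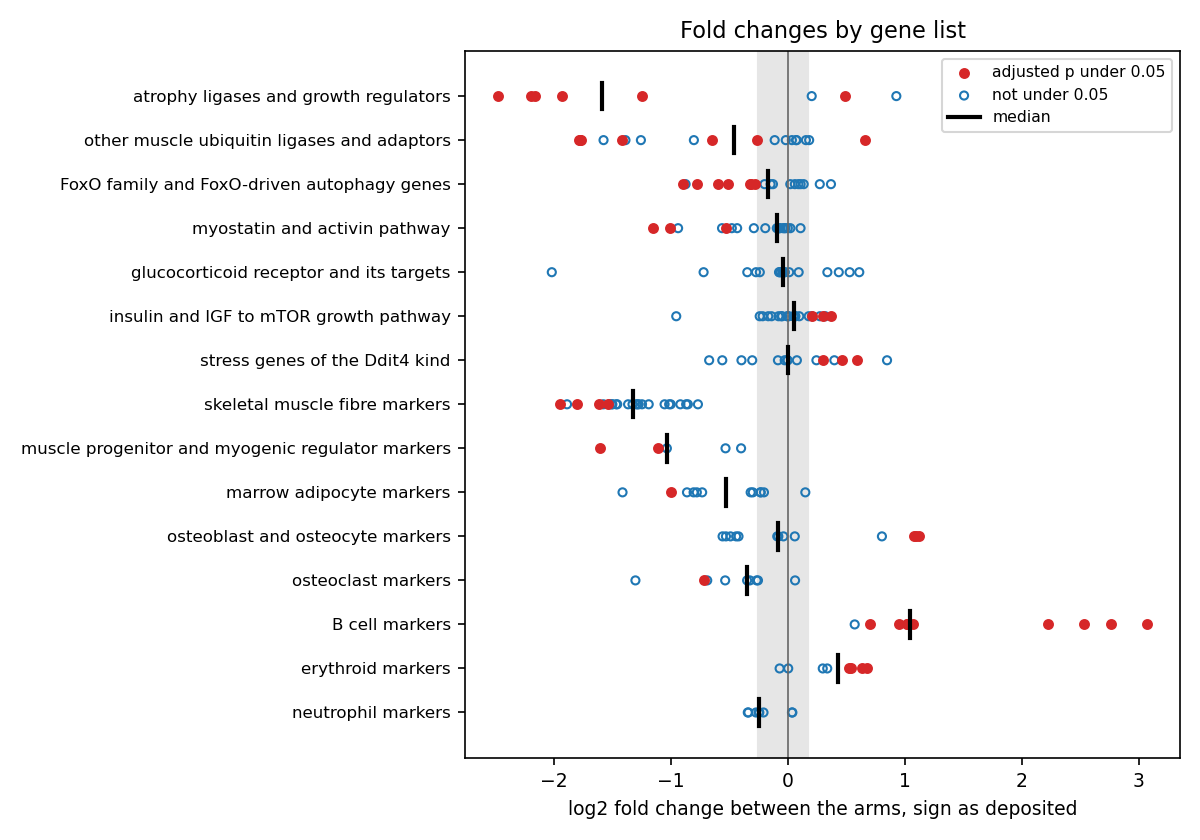
Log2 fold change between the arms, sign as deposited (x axis), of each tested gene in each gene list (rows), red where the adjusted p was under 0.05, with the list's median as a bar and the quartile range of all tested genes in grey. The 8 genes and the fibre markers have medians of -1.59 and -1.33, and the B cell markers have the highest median at 1.04.

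Markers of other cell types in bone were set beside these values. All 5 tested myogenic regulators were negative, at a median of -1.03, and 2 passed. Myf6, a regulator of fibre maturation, was one of these at -1.60 ± 0.50 (SE) in the authors' deposited table. The other 7 genes of that list, among them the satellite cell factor Pax7 at a mean count of 0.701 and Myog at 5.92, were too low to have an adjusted p. Marrow adipocyte markers had a median of -0.53 in the authors' deposited table, with 1 of 12 (8.33%) past the threshold, the lipase gene Lpl. Of 13 osteoblast and osteocyte markers 8 were negative and 5 positive, at a median of -0.08 in the authors' deposited table. The 3 that passed (23.1%) were the bone matrix genes Col1a1, Bglap and Bglap2, with a positive sign. Osteoclast, B cell, erythroid and neutrophil markers had medians of -0.35, 1.04, 0.43 and -0.25 in the authors' deposited table. In the same order, 1 of 9, 9 of 10, 4 of 8 and 0 of 9 passed. Beside all of these lists, 12.2% of all tested genes passed with either sign, 6.11% with a negative and 6.07% with a positive one. Lpl and the osteoclast marker that passed were negative, and the B cell and erythroid markers that passed were positive. The part of these cells in the results for the 8 genes was not tested.

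Of the 8 genes, 6 carried m6A peaks and 2, Foxo3 and Mstn, had none. Peaks were called for the whole series and not by library, and the table gives for each the enrichment of IP over input. Of the 500 genes nearest to Foxo3 in mean count, 67.8% had at least 1 peak, and of the 500 nearest to Mstn 14.2% did. Fbxo30 carried 4 peaks, and 89.5% of the 6847 genes with a peak had fewer. Klf15 had 3 peaks, Trim63 had 2, and Fbxo32, Fbxo40 and Ddit4 had 1 each. All 12 peaks lay inside the gene of their name in the GRCm38.p6 annotation, as did 99.8% of all peaks whose gene is listed there, while the submitters' processing notes name the rat build rn6.

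The single Fbxo32 peak was the most enriched of the 12, at 2.63-fold over input in the authors' deposited table (chr15:58181068-58181417, minus strand, 350 bases), and 90.2% of all peaks were less enriched. The Ddit4 peak (chr10:59950418-59950517, minus strand) stood at 2.21-fold in the authors' deposited table. The Trim63 peaks differed, with 1.21-fold at chr4:134321215-134323038, which joins 2 blocks of 99 bases in all, and 2.07-fold at chr4:134325655-134325754 in the authors' deposited table. Fbxo40 had 1.76-fold at chr16:36970047-36970197 in the authors' deposited table. Counted from the 5′ end, the Fbxo30 peaks had 1.58, 1.96, 2.13 and 2.24-fold in the authors' deposited table, and the Klf15 peaks 2, 1.73 and 1.15-fold. Of the 12 peaks, 6 reached an enrichment of 2, where 37.3% of all peaks did, and the medians were 1.98 for the 12 and 1.82 for all peaks. No error comes with an enrichment, so these values are not ranked against each other beyond their order.

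The first Fbxo30 peak lay around an annotated start of the gene, with most of its bases before it. The peak joins a block of 121 bases (chr10:11281380-11281500) and one of 29 bases (chr10:11281587-11281615). The second block begins at the very base where the RefSeq promoter window places the start of a transcript. The block of 121 bases lies wholly before that base. This peak had a log2 difference of enrichment between the arms of -0.30 and a difference p of 0.049 in the authors' deposited table. The Fbxo40 peak had a difference of -0.52 at a p of 0.024 in the authors' deposited table. These 2 of 12 peaks passed a p of 0.05, where 4.92% of all peaks did (1.32% negative, 3.6% positive), and neither passed after adjustment (FDR of 0.998 and 0.857), where 0.0229% of all peaks did. At a p under 0.01 none of the 12 passed, beside 1.44% of all peaks, and none of the 6 that reached an enrichment of 2 passed at 0.05, beside 4.85% of such peaks. The other 10 peaks had differences from -0.73, in the third Klf15 peak, to 0.31, in the first Trim63 peak, with p-values from 0.221 to 0.641 in the authors' deposited table. Of the 12 differences, 6 were negative and 6 positive. The peak of Fbxo32, the gene with the smallest RNA p of the negative ones, had a difference of 0.22 at a p of 0.635 in the authors' deposited table. The m6A difference uses the same input libraries as the RNA comparison, and its numerator is not stated either, so the signs of the 2 tables are not set against each other.

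**Figure D5:**
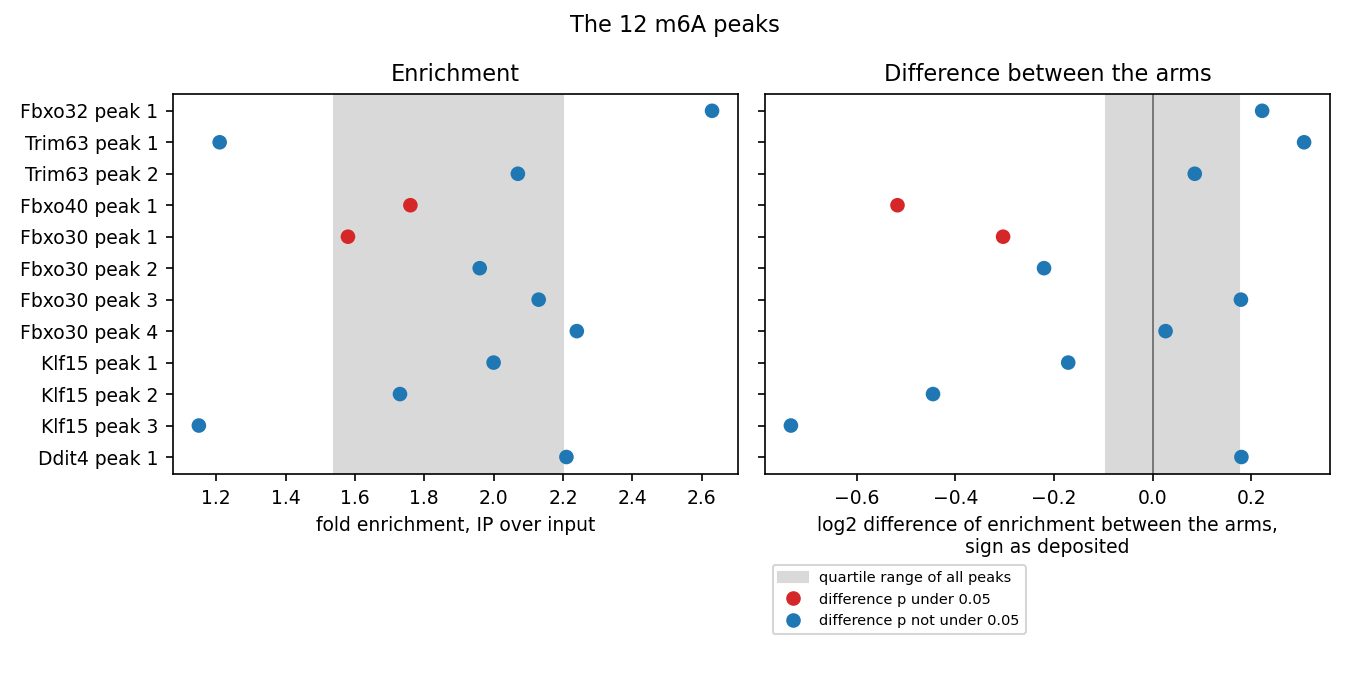
Fold enrichment of IP over input (left x axis) and log2 difference of enrichment between the arms, sign as deposited (right x axis), of the 12 peaks, numbered from the 5′ end of each gene, with the quartile range of all 13083 peaks in grey. The Fbxo32 peak has the highest enrichment, 2.63, and the 2 peaks with a difference p under 0.05, in Fbxo40 and Fbxo30, are red.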

How the data were processed

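Libraries were stranded mRNA libraries with unique molecular identifiers, per the labels' protocols. Tools and build per the submitters' processing notes are DESeq, HISAT2, StringTie and rn6, without roles. Per the file headers, the authors deposited per gene a mean normalized count (signal), the log2 fold change, its SE, a Wald score and p-values. Per peak, the authors deposited a p-value, log10 p and FDR, the enrichment as a ratio, and the log2 difference with its log10 p and FDR as a score. The depth of single libraries is unknown; mean counts summed to 43717045. Count models, level per length and motifs in peaks, planned before, lacked library values, transcript lengths and a genome.

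In Python 3.11.15 (pandas 2.3.3, numpy 2.4.6, scipy 1.17.1, matplotlib 3.10.9), threshold counts, medians, counting errors and CVs were computed, the CV after a check on simulated data. That check took the SE from repeated draws, so it does not cover errors in the deposited SE of a gene. Peak starts were shifted by 1 to count from 1. The 8 genes and the lists were chosen with earlier results of these data known and support nothing independently. TATAAA and CpG counts were added after the windows were seen. Up to 4 called genes of each list by smallest p were named, or the 2 with the smallest p, leaving out the osteoclast, B cell, erythroid and neutrophil lists. Some genes that this rule takes are not named.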

Additional observations from a re-analysis of the deposited data

How the results depend on the processing

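The 5 negative genes and Foxo3 were called at every threshold tried except that Foxo3, at a log2 fold change of 0.49, dropped out where a log2 fold change of 1 or more in size was asked, which left 5. Ddit4 joined at an adjusted p under 0.1, which made 7. The count of all called genes was 882 at an adjusted p under 0.01 and 392 with the fold change minimum. The count of muscle fibre markers was 0 at an adjusted p under 0.01, beside 5.73% of all genes, and 9 at 0.1, beside 17.7%. It was 2 with Benjamini-Hochberg values over every gene with a p, beside 9.13%. Of the 25, 16 had an unadjusted p under 0.05 in the deposited test, a share that was not counted over all tested genes. The 2 peaks called at a difference p under 0.05 became 0 at a p under 0.01, 0 at an FDR under 0.05 and 0 among peaks with an enrichment of at least 2. Relative to the median of the muscle fibre markers, the fold change of Klf15 turned to 0.079, because that median of -1.33 is close to its own value. Leaving out replicates, other normalizations, the level per length and motifs in peaks were not run. No paired analysis was possible because the tables hold no column of a single library.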

Other observations

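Among all 56 tested genes of the F-box families Fbxo, Fbxl and Fbxw, which give cullin ligases their substrates, 9 (16.1%) passed the threshold, 5 negative and 4 positive, where 12.2% of all tested genes did. The median log2 fold change of the family was 0.03 in the authors' deposited table. Beside Fbxo32 and Fbxo40 the negative ones were Fbxo31 at -0.80 ± 0.18, Fbxo4 at -0.44 ± 0.09 and Fbxo25 at -0.40 ± 0.11 (SE) in the authors' deposited table. Fbxo25 is the closest relative of Fbxo32 in mammals. The positive ones were Fbxl22 at 0.66 ± 0.23, Fbxl19 at 0.49 ± 0.11, Fbxo42 at 0.33 ± 0.07 and Fbxl6 at 0.31 ± 0.11 (SE) in the authors' deposited table. Fbxl22, a sarcomere F-box protein of striated muscle, thus had the opposite sign to Fbxo32 and Fbxo40, at a mean count of 117. The called genes of this family were chosen after their values were seen.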
